A study of Rattus norvegicus with 4 samples.

Results

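The early-response genes described here are the EGR zinc finger factors Egr1, Egr2 and Egr3, the NR4A orphan nuclear receptors Nr4a1, Nr4a2 and Nr4a3, the Kruppel-like factors Klf2, Klf4 and Klf6, and Dusp1, a phosphatase of MAP kinases. They were taken by gene symbol from a table of 13554 genes, and each of the 10 had 1 row. RNA was sequenced from articular cartilage, which covers the bone ends in joints, and from xiphoid cartilage, the cartilage at the lower tip of the sternum, of Sprague-Dawley rats aged 8 to 10 weeks. Each tissue had 2 libraries, and no treatment or allele was named in the labels. The labels do not state the joint, the sex, or whether libraries came from separate animals or pools, so a p-value here speaks of the spread among these 4 samples, part of which can be technical.

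Early-response genes are transcribed within minutes of a stimulus such as a growth factor, a mechanical load or a stress hormone, without new protein synthesis. Serum response factor, which binds the CArG box, and the cAMP-responsive factor CREB, which binds the CRE, are among their known regulators. EGR and KLF proteins bind GC-rich DNA through zinc fingers, NR4A receptors bind the NBRE element, and Dusp1 removes the phosphates that activate the MAP kinases, which closes a feedback loop. They are also known to respond to the handling of tissue, and the labels give no interval between death and freezing.

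The libraries held 7351005 to 8434821 counts each. The defining chondrocyte markers were present in all 4 libraries, and the 10 listed chondrocyte genes, Col2a1 among them, made up 12.5% and 10.8% of counts in the articular libraries, against 3.28% and 3.07% in the xiphoid libraries. Without Col2a1 the other 9 made up 2.25% and 2.21% in the articular libraries, against 1.64% and 1.6% in the xiphoid libraries. Of the 10, 6 passed toward articular cartilage, 2 (Comp and Cnmd) toward xiphoid cartilage, and 2 in neither direction. Between the tissues, 49.5% of 11202 genes tested passed an adjusted p of 0.05 (edgeR quasi-likelihood test, Benjamini-Hochberg), 25.0% as higher in articular and 24.5% as higher in xiphoid cartilage, so a passed test is common in this comparison. Values below are CPM (library-size normalised counts) after TMM scaling, a correction for library composition. All log2 fold changes are articular over xiphoid, with their standard error (SE), and adjusted p-values are from that edgeR test. Levels were not corrected for transcript length, so they are compared between tissues and not between genes.

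The EGR and NR4A genes that passed lay on opposite sides of the comparison. Egr1, Egr3 and Klf6 were higher in articular cartilage, and Nr4a1, Nr4a2, Nr4a3 and Dusp1 were higher in xiphoid cartilage. Egr2, Klf2 and Klf4 did not pass. That is 3 of 10 members higher in articular cartilage and 4 of 10 higher in xiphoid cartilage, against 25.0% and 24.5% of all genes tested. Egr2 and Egr3 were tested through the articular libraries and Nr4a3 through the xiphoid libraries, since their other tissue lay below the low-count filter of 1.24 CPM. Of the 7 members above it in both tissues, articular cartilage had the higher level in 2, xiphoid cartilage in 3, and 2 did not pass. The libraries of the tissues did not overlap for 9 of the 10 members, as for 74.9% of all genes tested. Over those 7 the median size of the log2 fold change was 1.14, against 1.46 over all 10 members and 0.57 over all genes tested, and the signed medians were -0.32, -0.23 and -0.02.

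**Figure D1:**
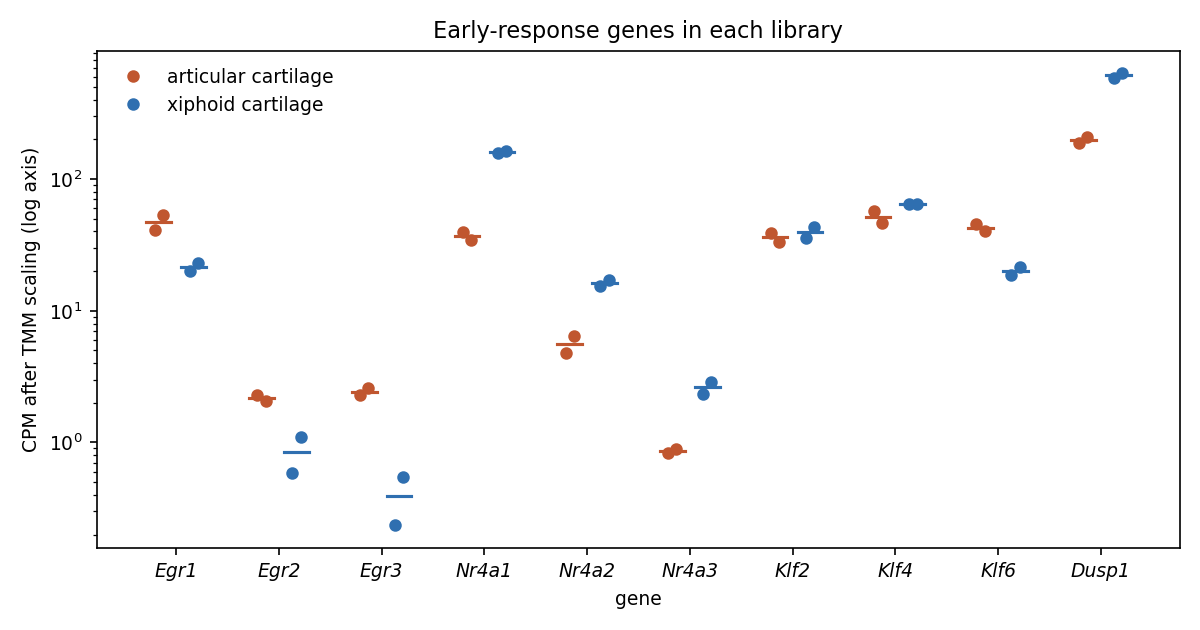
CPM after TMM scaling (log axis) of the 10 early-response genes in each library, with articular libraries left and xiphoid libraries right at each gene and a bar at the mean of 2 libraries. The articular points lie above the xiphoid points for Egr1, Egr2, Egr3 and Klf6 and below them for Nr4a1, Nr4a2, Nr4a3, Klf4 and Dusp1, while those of Klf2 overlap.

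The 250 bases before the annotated start are shown for 4 genes, because they carry the known entry points of serum and cAMP signals. Egr1 was higher in articular cartilage, Nr4a1 and Dusp1 were higher in xiphoid cartilage, and Egr2, which did not pass, is shown for its likeness to Egr1. Sequences are from RefSeq, assembly GRCr8, which is not the build of the counts, and 7 of the 10 members had one in the table used. Capitals mark each CArG box, CCWWWWWWGG with W for A or T, and each CRE core, TGACG on either strand. A full CRE, TGACGTCA, appears as 2 overlapping cores. Only exact matches were searched, so CArG-like stretches that depart from these letters are not marked or counted. They lie at chr18:26736828-26737077 (plus strand) for Egr1, chr20:21054442-21054691 (minus strand) for Egr2, chr7:134259888-134260137 (plus strand) for Nr4a1 and chr10:17184603-17184852 (plus strand) for Dusp1.
Egr1: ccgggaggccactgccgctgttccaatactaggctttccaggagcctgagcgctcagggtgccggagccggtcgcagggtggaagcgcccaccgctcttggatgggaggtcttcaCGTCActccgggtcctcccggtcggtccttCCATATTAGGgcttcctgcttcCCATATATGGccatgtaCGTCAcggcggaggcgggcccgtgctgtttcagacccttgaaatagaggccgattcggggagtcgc
Egr2: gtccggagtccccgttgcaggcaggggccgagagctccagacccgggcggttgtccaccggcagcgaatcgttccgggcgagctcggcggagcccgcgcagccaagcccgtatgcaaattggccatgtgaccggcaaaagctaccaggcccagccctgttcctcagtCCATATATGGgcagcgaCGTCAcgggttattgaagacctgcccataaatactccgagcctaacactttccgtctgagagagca
Nr4a1: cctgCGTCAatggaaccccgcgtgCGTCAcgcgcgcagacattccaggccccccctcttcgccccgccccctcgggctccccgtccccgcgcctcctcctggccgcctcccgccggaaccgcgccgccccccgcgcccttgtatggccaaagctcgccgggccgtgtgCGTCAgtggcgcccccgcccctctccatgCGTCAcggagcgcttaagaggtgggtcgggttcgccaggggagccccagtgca
Dusp1: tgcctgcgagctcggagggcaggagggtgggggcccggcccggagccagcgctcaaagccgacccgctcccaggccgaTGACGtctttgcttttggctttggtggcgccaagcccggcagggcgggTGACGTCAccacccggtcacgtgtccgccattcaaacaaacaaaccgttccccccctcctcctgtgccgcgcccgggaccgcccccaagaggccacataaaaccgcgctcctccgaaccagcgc

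Egr1 held 2 CArG boxes, 105 to 96 and 83 to 74 bases before the start, and 2 CRE cores. Egr2 held 1 CArG box, with the same 10 letters and at the same distance as the nearer box of Egr1, and in both genes a CRE core followed 66 to 62 bases before the start. Over the 22 bases that span box and core, 18 were identical, a count that includes the shared box and core by which the stretch was chosen. The bases between them read ccatgta in Egr1 and gcagcga in Egr2. Nr4a1 held no CArG box and 4 CRE cores, and Dusp1 held no CArG box and 3 cores, of which 2 form a full CRE 124 to 117 bases before the start. Of the other members with a sequence, Klf6 held 1 CArG box, 201 to 192 bases before the start, and no CRE core. The Nr4a2 window held 1 CRE core and no CArG box, and the Klf4 window held neither. G and C made up 52% and 43.2% of these windows, against 62% to 74.8% of the others. Whether the annotated starts are those used in cartilage was not tested, so a missing element here speaks of exact matches in these windows only.

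These elements differ in how common they are. Over the same window of 9143 tested genes, 1.12% held a CArG box, 28.6% a CRE core, 0.372% both, 7.47% at least 2 cores, 1.87% at least 3 cores and 2.96% a full CRE. An EGR site, GCGGGGGCG, lay in the Nr4a1 window 73 to 65 bases before the start, where it overlaps a GC box, and in no other member's window. It was in 4.51% of windows of tested genes. The NBRE, AAAGGTCA, and the EGR site variant GCGTGGGCG, found in 0.755% and 0.93% of windows, were in none of the 7. The GC box, GGGCGG, was in 59.0% of windows, the letters CACCC in 56.8% and TATAAA in 6.64%, all on either strand. A CArG box was in 0.938% of windows of genes higher in articular cartilage, 1.09% of those higher in xiphoid cartilage and 1.21% of those that did not pass, and a CRE core was in 29.6%, 22.5% and 31.0%. A match is a description of letters, not of binding.

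**Figure D2:**
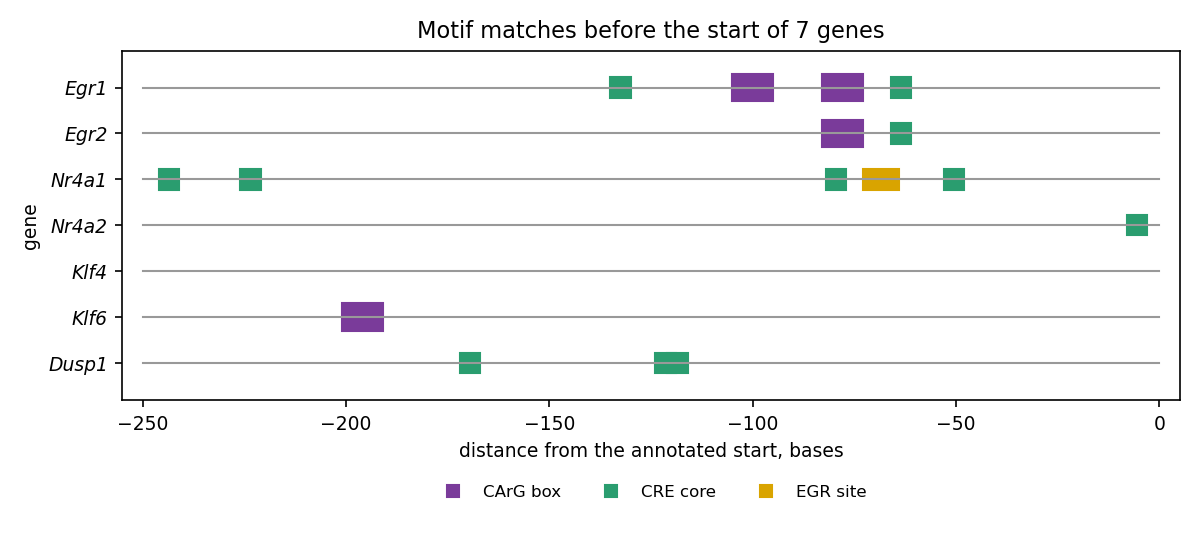
Matches to the CArG box, the CRE core and the EGR site on either strand in the 250 bases before the annotated start of 7 members, drawn by distance from the start. Egr1, Egr2 and Klf6 have a CArG box, and Nr4a1 and Dusp1 have 4 and 3 CRE cores, 2 of those of Dusp1 drawn as 1 block.

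Egr1 encodes an early growth response factor that couples growth factor and load signals to transcription. It was at 41.2 and 53.4 CPM in the articular libraries, against 19.99 and 23.02 CPM in the xiphoid libraries. Both articular values lay above both xiphoid values, and the articular libraries differed from each other by 0.38 on the log2 scale. Egr1 was 2.2-fold higher in articular cartilage, a log2 fold change of 1.14 (SE 0.19, adjusted p = 0.000397), at 47.3 ± 8.68 CPM in articular cartilage against 21.5 ± 2.14 CPM in xiphoid cartilage (SD, n = 2 each).

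Egr2, known for its role in myelinating Schwann cells and the hindbrain, and Egr3, known from muscle spindles and lymphocytes, were near the limit of detection. Egr3 had 19 and 20 counts in the articular libraries, against 2 and 4 counts in the xiphoid libraries. That is a ratio of 6.34 between the tissues' scaled counts, with an exact 95% interval of 2.67 to 18.3 that covers counting error only, and the fitted log2 fold change was 2.62 (SE 0.66, adjusted p = 0.00592). Without xiphoid replicate 1, Egr3 had a log2 fold change of 2.12 and an adjusted p of 0.0744 in the same edgeR test, and without xiphoid replicate 2 it had 3.29 and 0.0138. Egr2 had 19 and 16 counts in the articular libraries, against 5 and 8 counts in the xiphoid libraries, a ratio of 2.63 (exact 95% interval 1.36 to 5.41). Its libraries did not overlap, and it did not pass (log2 fold change 1.37, SE 0.58, adjusted p = 0.0671). The xiphoid libraries differed from each other by 0.90 for Egr2 and 1.22 for Egr3 on the log2 scale, at these few counts.

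The NR4A receptors act without a known ligand in the classical sense, and only their transcripts, not their activity, were measured here. Nr4a1 (Nur77) was at 39.8 and 34.4 CPM in the articular libraries, against 158.9 and 163.6 CPM in the xiphoid libraries. The tissues were far apart and the xiphoid libraries nearly equal, with a log2 gap of 0.04 between them. It was 4.34-fold higher in xiphoid cartilage, a log2 fold change of -2.12 (SE 0.16, adjusted p = 4.51e-07), at 37.1 ± 3.83 CPM in articular cartilage against 161.2 ± 3.33 CPM in xiphoid cartilage (SD, n = 2 each). Among all genes tested it ranked 350 by adjusted p. Its row pools the annotated Nr4a1 transcript with 1 that the submitters' assembly added.

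Nr4a2 (Nurr1), known for the specification of dopamine neurons, was at 4.79 and 6.42 CPM in the articular libraries, against 15.5 and 17.3 CPM in the xiphoid libraries. All articular values lay below the xiphoid ones, and the gene was 2.92-fold higher in xiphoid cartilage, a log2 fold change of -1.55 (SE 0.26, adjusted p = 0.000393). Nr4a3 (Nor1), the third receptor of the family, had 7 and 7 counts in the articular libraries, against 20 and 21 counts in the xiphoid libraries. The ratio of articular to xiphoid counts was 0.333 after scaling to the totals, with an exact 95% interval of 0.168 to 0.624. Nr4a3 passed with all libraries (log2 fold change -1.57, SE 0.53, adjusted p = 0.0282) and did not pass when any 1 library was left out, with adjusted p of 0.0867 to 0.205, nor with DESeq2 (adjusted p = 0.114). Its log2 fold change without a library was -1.70 to -1.41. The Nr4a3 locus overlaps another annotated gene in GRCr8, for which no value is used here, and the sources used here do not say whether reads were counted by strand.

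**Figure D3:**
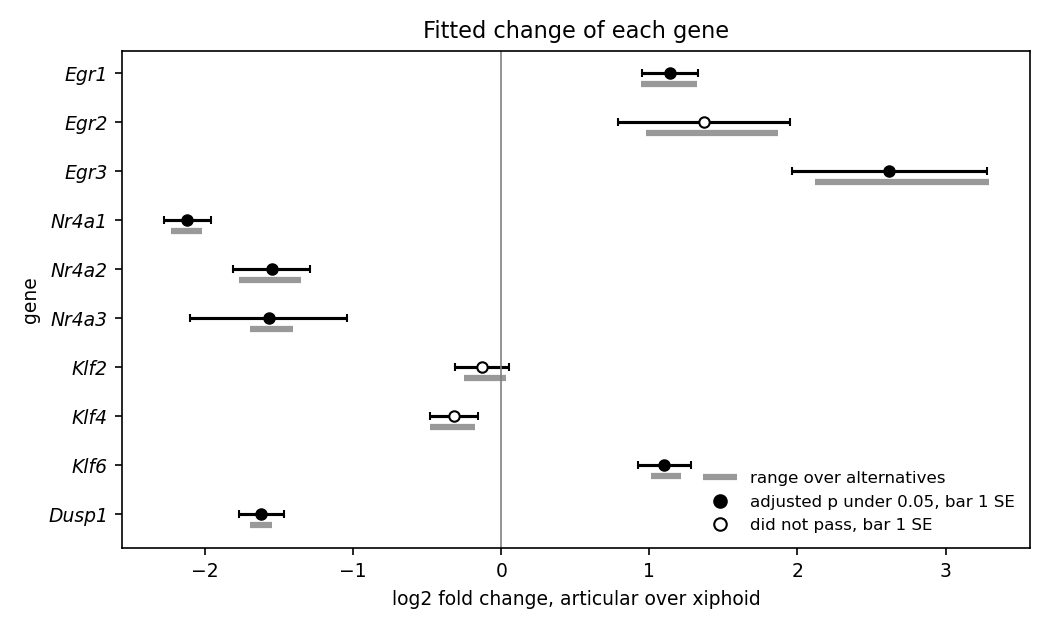
Log2 fold change, articular over xiphoid, of each member with 1 SE (filled, adjusted p under 0.05; open, did not pass), and as a grey bar the range over the alternatives that gave a value. Nr4a1, Nr4a2, Nr4a3 and Dusp1 lie at -2.12 to -1.55, Egr1, Egr2, Egr3 and Klf6 at 1.10 to 2.62, and the grey bar of Klf2 crosses 0.

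The Kruppel-like factors did not move as a family. Klf6, a widely expressed factor induced by injury, was at 45.2 and 40.1 CPM in the articular libraries, against 18.6 and 21.4 CPM in the xiphoid libraries. No values overlapped, and Klf6 was 2.14-fold higher in articular cartilage, a log2 fold change of 1.10 (SE 0.18, adjusted p = 0.000353), a change close in size to that of Egr1.

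Klf4, known for epithelial barrier formation and for reprogramming to pluripotency, was at 57.2 and 46.2 CPM in the articular libraries, against 64.6 and 64.9 CPM in the xiphoid libraries. Its difference of -0.32 (SE 0.16) did not pass (adjusted p = 0.12), although the libraries did not overlap. Without articular replicate 1, the higher of the articular pair, the difference was -0.48 and passed (edgeR adjusted p = 0.0236). Klf2, known as a flow-induced factor of endothelial cells and a regulator of T cell quiescence, was at 39.2 and 33.1 CPM in the articular libraries, against 35.8 and 43.4 CPM in the xiphoid libraries. These values overlap, and the log2 fold change of -0.13 (SE 0.18) did not pass (adjusted p = 0.587). The ratio of the tissues' counts, 0.921, had an exact 95% interval of 0.821 to 1.03 that covers counting error only. Klf2 overlaps Eps15l1 in GRCr8, which had 288 and 251 counts in the articular libraries, against 218 and 175 in the xiphoid libraries, and the part of shared reads was not tested.

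Dusp1 (MKP-1), the dual-specificity phosphatase that inactivates p38, JNK and ERK and is induced by glucocorticoids and stress, was at 188.7 and 208.1 CPM in the articular libraries, against 588.5 and 635.0 CPM in the xiphoid libraries. The tissues were well separated, with log2 gaps of 0.14 within articular and 0.11 within xiphoid cartilage. Dusp1 was 3.08-fold higher in xiphoid cartilage, a log2 fold change of -1.62 (SE 0.15, adjusted p = 2.6e-06), at 198.4 ± 13.7 CPM in articular cartilage against 611.8 ± 32.8 CPM in xiphoid cartilage (SD, n = 2 each). It ranked 563 by adjusted p among the genes tested.

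Ratios of counts within a library restate the same counts without any scaling between libraries, so they are no separate support for the split. The ratio of Egr1 to Nr4a1 counts was 1.03 and 1.55 in the articular libraries, against 0.126 and 0.141 in the xiphoid libraries. The ratio of Egr1 to Dusp1 counts was 0.218 and 0.257 in the articular libraries, against 0.034 and 0.0362 in the xiphoid libraries. The ratio of Egr1 to Klf6, both higher in articular cartilage, was 0.91 and 1.33 in the articular libraries, against 1.08 and 1.08 in the xiphoid libraries, which overlap. Among genes higher in xiphoid cartilage, the ratio of Nr4a1 to Nr4a2 was 8.32 and 5.36 in the articular libraries, against 10.2 and 9.48 in the xiphoid libraries, and that of Nr4a1 to Dusp1 was 0.211 and 0.165 in the articular libraries, against 0.27 and 0.258 in the xiphoid libraries. Neither overlapped. The ratio of Klf6 to Klf4 was 0.791 and 0.867 in the articular libraries, against 0.288 and 0.329 in the xiphoid libraries, and that of Klf6 to Klf2 was 1.15 and 1.21 in the articular libraries, against 0.52 and 0.492 in the xiphoid libraries. Such ratios compare unequal change between genes and carry no information on which of the pair changed.

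The relatives of the members showed both directions as well. Nab1 and Nab2 encode corepressors that bind EGR proteins. Nab1 was at 47.1 and 59.2 CPM in the articular libraries, against 31.7 and 32.2 CPM in the xiphoid libraries, and passed as higher in articular cartilage by 0.73 on the log2 scale (SE 0.17, adjusted p = 0.00394). Nab2 was at 68.8 and 65.6 CPM in the articular libraries, against 42.2 and 58.2 CPM in the xiphoid libraries, and did not pass (adjusted p = 0.0671), although it passed without articular replicate 2 (0.0274), without xiphoid replicate 2 (0.029) and with no low-count filter (0.0441, all edgeR). Egr4 was not analysed here.

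Among 12 other tested KLF genes, 5 had more transcript in articular and 5 in xiphoid cartilage, against 25.0% and 24.5% of genes tested. The other 2 did not pass, and the median log2 fold change was -0.50, against -0.02 over all genes. Klf1 and Klf14 were tested through 1 tissue, their other tissue lying below the low-count filter, and without them 4 were higher in each tissue. Klf5, a factor of smooth muscle and epithelial growth, had the largest difference to xiphoid cartilage among those with counts in both tissues, at 3.71 and 6.94 CPM in the articular libraries against 58.4 and 58.9 CPM in the xiphoid libraries (log2 fold change -3.47, SE 0.25, adjusted p = 3.51e-07). Klf15, a glucocorticoid-induced factor of muscle and fat metabolism, was at 23.4 and 22.9 CPM in the articular libraries against 70.0 and 66.2 CPM in the xiphoid libraries (adjusted p = 8.29e-06). Klf1, the erythroid factor, was at 5.86 and 7.06 CPM in the articular libraries against 0.353 and 0.548 CPM in the xiphoid libraries (adjusted p = 6.19e-05), and is itself one of the erythroid markers given below. Klf13 was at 73.2 and 65.5 CPM in the articular libraries against 32.5 and 28.2 CPM in the xiphoid libraries (adjusted p = 8.94e-05). Klf14 had no count in the articular libraries and 37 counts in the xiphoid libraries, at least 12.8-fold higher in xiphoid cartilage against a floor of 3 counts over both articular libraries. Klf8 and Klf17 were not analysed here.

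Of 8 other tested MAP kinase phosphatases, 2 had more transcript in articular and 1 in xiphoid cartilage, against 25.0% and 24.5% of genes tested. The other 5 did not pass, and the median log2 fold change was 0.38. Dusp2 was tested through the articular libraries, since the xiphoid libraries lay below the low-count filter. Without 1 library those counts were 1 or 2 toward articular and 0 to 2 toward xiphoid cartilage. Dusp2, a nuclear phosphatase of immune cells, was at 2.75 and 2.44 CPM in the articular libraries against 0.353 and 0.822 CPM in the xiphoid libraries (log2 fold change 2.15, adjusted p = 0.0111). It was 1.65 (adjusted p = 0.122) without xiphoid replicate 1 and 2.84 (0.0177) without xiphoid replicate 2, each in the edgeR test. Dusp8 at 24.9 and 13.9 CPM in the articular libraries against 12.8 and 10.3 CPM in the xiphoid libraries, and Dusp10 at 2.03 and 1.80 CPM in the articular against 5.06 and 3.42 CPM in the xiphoid libraries, passed narrowly (adjusted p = 0.0436 and 0.0416). Neither did so with DESeq2 (0.0751 and 0.137). Dusp8 was lost without articular replicate 1 (log2 fold change 0.26, against 0.75 with all libraries) and without xiphoid replicate 2, and Dusp10 without articular replicate 1, articular replicate 2 or xiphoid replicate 1 (adjusted p = 0.0766, 0.122 and 0.34, edgeR). Dusp5, a nuclear ERK phosphatase, was at 4.31 and 5.01 CPM in the articular libraries against 2.82 and 1.92 CPM in the xiphoid libraries and did not pass (adjusted p = 0.0657). Besides Dusp10 (log2 fold change -1.15, SE 0.43), Dusp4 and Dusp7 also had negative values, of -0.91 (SE 0.53) and -0.22 (SE 0.18), and did not pass (edgeR adjusted p = 0.174 and 0.339). Their differences from Dusp1 were not tested.

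Of 36 other early-response genes, all tested, 13 had more transcript in articular and 7 in xiphoid cartilage, against 25.0% and 24.5% of genes tested. The other 16 did not pass, and the median log2 fold change was 0.11. The 4 with the lowest adjusted p were all higher in articular cartilage. Cyr61, a matricellular CCN protein and YAP target, was at 221.5 and 242.6 CPM in the articular libraries against 62.6 and 71.1 CPM in the xiphoid libraries (log2 fold change 1.80, adjusted p = 1.42e-06). Gadd45b, a growth arrest gene, averaged 32.5 ± 3.8 CPM in articular against 10.8 ± 1.25 CPM in xiphoid cartilage (SD, n = 2 each, edgeR adjusted p = 5.3e-05). The stress factor Atf3 averaged 27.5 ± 7.25 CPM in articular against 7.63 ± 0.52 CPM in xiphoid cartilage (SD, n = 2 each, edgeR adjusted p = 6.49e-05). Ier3 was at 52.0 and 44.4 CPM in the articular libraries against 20.8 and 17.8 CPM in the xiphoid libraries (adjusted p = 9.2e-05). The 7 higher in xiphoid cartilage, named here after their values were seen, were Zfp36, Zfp36l2, Nfkbia, Tob1, Tob2, Sik1 and Trib1, with log2 fold changes of -1.23 to -0.70. Tob1 did not pass without articular replicate 1 (-0.34, edgeR adjusted p = 0.132) and was at -1.37 without articular replicate 2. Trib1 did not pass without articular replicate 2 (-0.50) or xiphoid replicate 1 (-0.45), nor with DESeq2 (adjusted p = 0.108).

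Of 6 tested AP-1 subunits, 4 had more transcript in articular and 1 in xiphoid cartilage, against 25.0% and 24.5% of genes tested. The other 1 did not pass. Fos was at 28.4 and 24.1 CPM in the articular libraries against 15.8 and 16.2 CPM in the xiphoid libraries (adjusted p = 0.00956), and Jun was at 26.8 and 23.0 CPM in the articular libraries against 38.6 and 37.8 CPM in the xiphoid libraries (adjusted p = 0.0122). Without xiphoid replicate 1 the adjusted p was 0.0635 for Fos and 0.0849 for Jun, and without xiphoid replicate 2 it was 0.0658 for Jun (edgeR).

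Of 24 tested upstream kinases and factors, 9 had more transcript in articular and 3 in xiphoid cartilage, against 25.0% and 24.5% of genes tested. The other 12 did not pass, and the median log2 fold change was 0.11. The first count was 5 without xiphoid replicate 1. Mapk3 (ERK1) was at 131.4 and 164.7 CPM in the articular libraries against 668.4 and 790.3 CPM in the xiphoid libraries (log2 fold change -2.30, SE 0.17, adjusted p = 4.25e-07). Mef2a, which acts downstream of ERK5 and p38, was at 163.8 and 201.8 CPM in the articular libraries against 42.7 and 54.8 CPM in the xiphoid libraries (adjusted p = 3.13e-06). Rps6ka1, which encodes the ERK-activated kinase RSK1, was at 14.1 and 14.9 CPM in the articular libraries against 40.3 and 38.9 CPM in the xiphoid libraries (adjusted p = 4.32e-05). Srf, the CArG-binding factor, was at 46.3 and 33.3 CPM in the articular libraries against 48.4 and 40.8 CPM in the xiphoid libraries and did not pass (adjusted p = 0.501). Creb1 was at 9.93 and 7.19 CPM in the articular libraries against 2.70 and 3.56 CPM in the xiphoid libraries and was higher in articular cartilage (log2 fold change 1.46, adjusted p = 0.00345). Srf and Creb1 were named after their values were seen. Mkl1, Mkl2, Ep300, Braf and Mef2c were not analysed here.

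**Figure D4:**
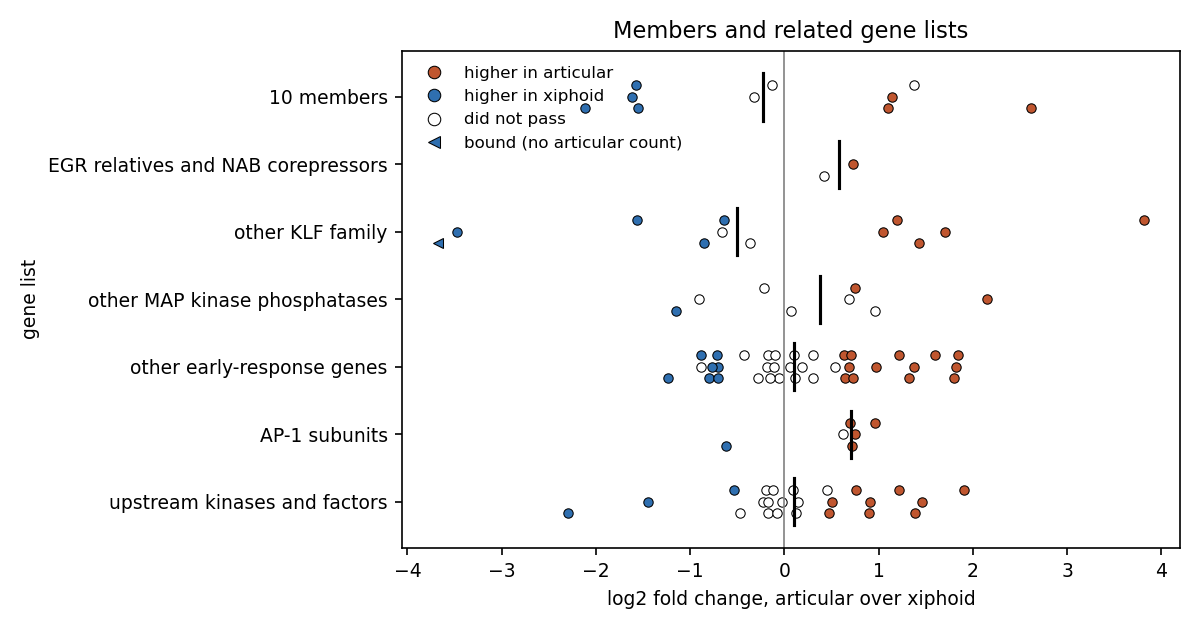
Log2 fold change, articular over xiphoid, of the 10 members and of each tested gene of 6 related lists, coloured by call, with a line at the median of each list. Every list with more than 2 tested genes has genes on both sides of 0, and Klf14 is drawn as a triangle at its bound.

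Markers of other cell types moved with the tissues, in bulk RNA where fewer cells of a type and less RNA per cell cannot be told apart. Skeletal muscle markers summed to 0.00415% and 0.00344% of counts in the articular libraries, against 0.814% and 0.844% in the xiphoid libraries, and all 10 were higher in xiphoid cartilage, Myh2 having no count in articular cartilage. Fibroblast and perichondrium markers summed to 0.119% and 0.127% in the articular libraries, against 1.51% and 1.37% in the xiphoid libraries (6 of 9 higher in xiphoid, Dcn higher in articular). Without Gsn the others summed to 0.0842% and 0.0934% in the articular libraries, against 0.106% and 0.101% in the xiphoid libraries. Adipocyte markers summed to 0.00746% and 0.00633% in the articular libraries against 0.265% and 0.216% in the xiphoid libraries (9 of 9, Lep at 0 in articular). Smooth muscle and pericyte markers were at 0.014% and 0.0131% in the articular libraries against 0.044% and 0.0442% in the xiphoid libraries (6 of 10 higher in xiphoid, Rgs5 higher in articular). Their leading gene, Des, is also a listed skeletal muscle marker. Without Des the others were at 0.0132% and 0.012% in the articular libraries against 0.027% and 0.0278% in the xiphoid libraries. The sums of these lists moved in the direction of Nr4a1, Nr4a2, Nr4a3 and Dusp1, and their part in those results was not tested. Schwann cell and nerve markers summed to 0.04% and 0.0459% in the articular libraries against 0.151% and 0.153% in the xiphoid libraries, most of it S100b, which cartilage also expresses. Without S100b the direction turned, with 0.00528% and 0.00577% in the articular libraries against 0.00414% and 0.00356% in the xiphoid libraries. Of the 8, 3 were higher in xiphoid and Ncam1 was higher in articular cartilage, and Sox10 was at 0 in xiphoid.

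On the articular side, erythroid markers were at 0.527% and 0.501% of counts in the articular libraries against 0.0412% and 0.0418% in the xiphoid libraries (9 of 9 higher in articular). Osteoclast markers were at 0.192% and 0.201% in the articular libraries against 0.0152% and 0.0141% in the xiphoid libraries (5 of 6, Calcr, Atp6v0d2 and Oscar at 0 in xiphoid). Osteoblast markers were at 0.978% and 0.913% in the articular libraries against 0.605% and 0.649% in the xiphoid libraries (7 of 8, all but Col1a1, Phex at 0 in xiphoid). Without Col1a1 the other 7 osteoblast markers were at 0.429% and 0.315% in the articular libraries against 0.00394% and 0.00418% in the xiphoid libraries. Neutrophil markers were at 0.0189% and 0.0194% in the articular libraries against 0.00107% and 0.00127% in the xiphoid libraries (7 of 9, Elane, Camp, Ngp, Mmp8 and Ctsg at 0 in xiphoid), and B cell markers at 0.00457% and 0.00423% in the articular libraries against 0.00124% and 0.00143% in the xiphoid libraries (5 of 7, Cd79b, Ms4a1, Vpreb1, Igll1 and Pax5 at 0 in xiphoid). Macrophage markers were at 0.0509% and 0.0576% in the articular libraries against 0.0281% and 0.029% in the xiphoid libraries (3 of 10 higher in articular, 1 higher in xiphoid). Without Lyz2 the other 9 were at 0.0165% and 0.0164% in the articular libraries against 0.013% and 0.012% in the xiphoid libraries. The sums of these lists moved in the direction of Egr1, Egr3 and Klf6, and their part in those results was not tested. Endothelial markers were at 0.0212% and 0.0199% in the articular libraries against 0.0302% and 0.0284% in the xiphoid libraries, with 1 of 12 higher in articular and 5 higher in xiphoid cartilage. Their part in the Klf2 and Klf4 values was not tested. The articular surface genes, led by Prg4, were at 0.916% and 1.19% in the articular libraries against 0.0784% and 0.0744% in the xiphoid libraries. Of these 5, Prg4, Cilp and Erg were higher in articular cartilage and Thbs4 and Dkk3 in xiphoid cartilage, and without Prg4 the sum was 0.0476% and 0.0501% in the articular libraries against 0.0725% and 0.0657% in the xiphoid libraries.

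**Figure D5:**
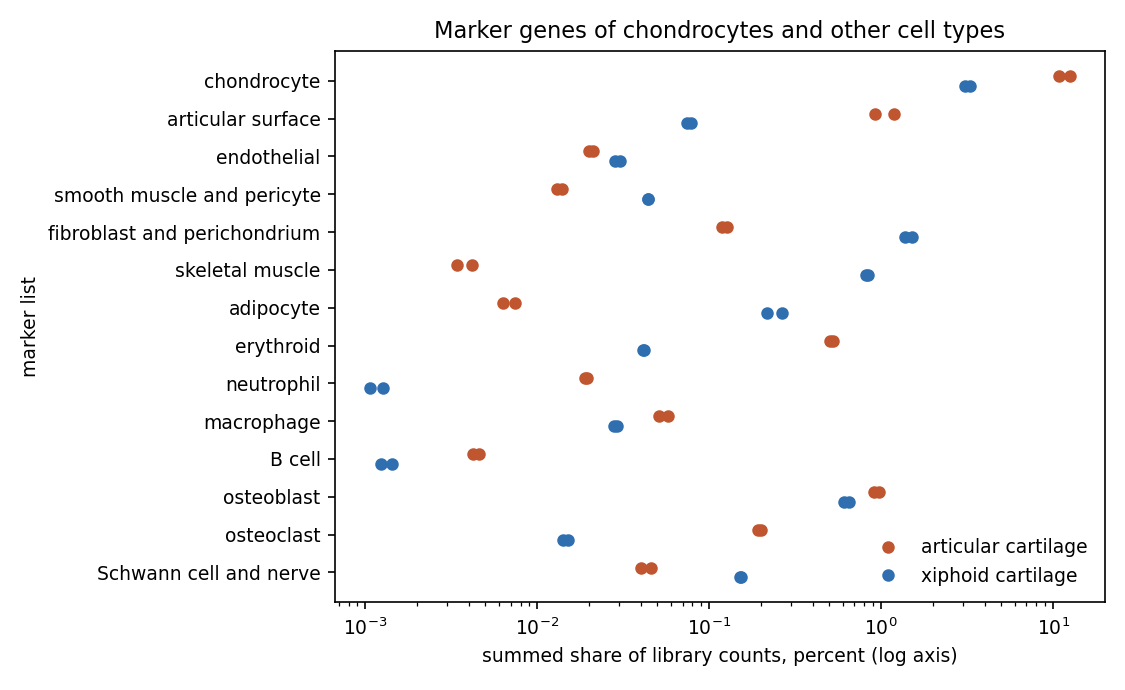
Summed share of library counts (percent, log axis) of 14 marker lists in each library, articular above xiphoid in each row. Muscle, fat and fibroblast lists are higher in both xiphoid libraries, and erythroid, osteoclast and neutrophil lists are higher in both articular libraries.

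The genes whose levels most resembled those of the main members were found by the distance between centred log2 CPM over the 4 libraries, among 8064 tested genes with a mean of at least 10 CPM. The 4 points share tissue and library, so the distances are a description. Nearest to Egr1 were Ubxn7 (distance 0.040), Sf3b1 (0.053) and Nampt (0.058). Nearest to Nr4a1 were Pkp1 (0.014), Apold1 (0.093) and Fam69b (0.135), and nearest to Dusp1 were Txnip (0.035), Cisd3 (0.065) and the chondrocyte gene Cnmd (0.073). Klf2 was nearest to Usp21 (0.011), Trmt1 (0.032) and Cebpb (0.033), the last a listed early-response gene, and Klf4 to Emc10 (0.036), Mark4 (0.036) and Ppp1r16a (0.043). Pkp1, which encodes the desmosomal protein plakophilin 1, was at 9.81 and 8.48 CPM in the articular libraries against 40.2 and 41.9 CPM in the xiphoid libraries.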

How the data were processed

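Expected counts (estimated reads, 3.91% of them not whole) had been deposited per gene for each library without scaling, per the file headers. The submitters' processing notes list RSEM 1.2.12, Bowtie2 2.2.6, StringTie 1.2.1, HISAT2 2.0.4 and build rn6 without their roles. Counts were rounded, filtered with filterByExpr by tissue (11202 genes tested, 2352 not), TMM-scaled and fitted by tissue with edgeR 4.0.16 (glmQLFit and glmQLFTest, robust, tissue as only term, 2 residual degrees of freedom) in R 4.3.3. Adjustment was Benjamini-Hochberg over all genes tested at 0.05, 2-sided. The SE is the size of the log2 fold change divided by the square root of F. DESeq2 1.42.0 and limma-voom (limma 3.58.1) were alternatives. The procedure was tested on simulated data. The members, gene lists and marker lists were chosen with earlier results of these data known. All members were named, and for each list the 4 tested genes with the lowest adjusted p (for AP-1, Fos and Jun); Klf14 and others were named after their values were seen, and a gene that the rule chose is not reported here. Motifs were searched as exact matches on both strands of the 250 bases before each RefSeq start. Each library was treated as 1 replicate. The 2 libraries of a tissue differed by more than counting noise, which does not show whether they came from separate animals.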

Additional observations from a re-analysis of the deposited data

How the results depend on the processing

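The 14 alternatives covered scaling, low-count filters, DESeq2, limma-voom, the replicate block, leaving out each library, ribosomal RNA rows and markers of other cell types. Leaving out marker rows removes only those genes from the fit. Reads that other cell types gave to the members stay in, so this alternative cannot test their part. Over the 10 members the alternatives gave 137 values, of which 128 kept direction and side of the threshold. Egr1, Nr4a1, Nr4a2, Klf6 and Dusp1 passed, and Egr2 did not, in every alternative that gave a value. Egr3 did not pass without xiphoid replicate 1, and its log2 fold change over the left-out libraries was 2.12 to 3.29. Nr4a3 was at -1.58 with DESeq2 (adjusted p = 0.114) and at -1.70 to -1.41 without 1 library, and did not pass. Klf2 was at -0.25 to 0.03 without 1 library, turning sign without xiphoid replicate 2, and passed in none. Klf4 was at -0.48 to -0.18 without 1 library. With the replicate number as a block, Klf4 was at -0.33 and passed (edgeR adjusted p = 0.0165), and Nab2 was at 0.44 and passed (0.00118). No other member or named gene changed its call under the block. Same-numbered libraries deviated together with r = 0.19 across genes, but nothing in the labels pairs them. The cause of these changes was not tested. A minimum mean of 5 CPM left Egr2, Egr3 and Nr4a3 untested. The counts of members and of all genes called stayed within 1.5 times. Of 400 values for named genes of the lists, 374 kept their call, 21 lost it, 4 gained it and 1 turned sign, namely Srf (-0.17 with all libraries), at -0.42 to 0.05 without 1 library, which did not pass. Of 168 list counts, 21 moved by more than 1.5 times. Depth limits Egr2, Egr3 and Nr4a3, which had 6 to 41 counts per tissue.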
